A study of Mus musculus with 4 samples.

Results

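The mRNAs described here carried listed NAT10 peaks of the class 3' untranslated region (3' UTR) and of no other class. They were chosen from the authors' peak list by its class column: a gene identifier was taken when all its rows were of the class 3' UTR. Of 1629 identifiers with a peak, 856 met this rule (52.5%), and they held 1646 of the 4172 distinct peaks (39.5%), which is 68.5% of the 2403 peaks of the class 3' UTR. Because the class of each peak chose the members, fold, p and width, which come from the same experiment, are described below without tests.

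NAT10 is the enzyme that writes N4-acetylcytidine (ac4C) onto RNA, and it is best known for acetylating ribosomal RNA and, with an adaptor protein, transfer RNA. The 3' UTR lies between the stop codon and the poly(A) tail, and is the part of an mRNA where many proteins and microRNAs that set its stability and translation bind. eCLIP reads such contacts: cells are irradiated with ultraviolet light so that proteins bond to RNA in contact with them, the protein is pulled down with an antibody, and the RNA that comes with it is read.

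The series compared 2 NAT10 immunoprecipitates with 2 inputs, all from 32D, a line of mouse bone marrow origin that needs interleukin-3 to grow and whose cell type the labels give as lymphoblastocytes. All libraries were of the genotype labelled WT, from irradiated cells grown with mouse interleukin-3. The labels do not say if replicate libraries were made from separate cultures. The authors' list has no value per library, so each fold (log2 of immunoprecipitate over input) and each -log10 p is a single value of the authors, with no spread between replicates, and the depth behind it is unknown. Only peaks with a log2 fold of 3.00 or more are listed, so a gene with 3' UTR peaks alone can still hold weaker contacts elsewhere.

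The cell type was checked against marker genes. Of 18 myeloid and mast cell markers 6 had a peak (Prtn3, Csf2rb, Ptprc, Srgn, Gata2 and Cd63), and Csf2rb, the shared signalling subunit of the interleukin-3 receptor, was the one with 3' UTR peaks alone. None of the 14 lymphoid, 6 erythroid, 4 hepatocyte and 4 neuronal markers had one. The background over protein-coding genes was 7.33% with any peak and 3.88% with 3' UTR peaks alone, so for sets this small a count of 0 is near the background, as is 1 of 18. A missing peak can mean a weak contact or a weakly transcribed gene, and the markers do not settle the cell type.

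Most of these mRNAs had a single listed peak, about as often as genes with exon peaks alone (59.3%). Among all identifiers the share was 46.8%. Of the 856 genes 504 carried 1 peak (58.9%, exact Clopper-Pearson interval of 95% from 55.5 to 62.2, which covers counting error only), 185 carried 2, 112 carried 3 to 4, 42 carried 5 to 7 and 13 carried 8 or more. The 55 genes with 5 or more peaks held 400 of the peaks (24.3%). An identifier with 1 peak can hold only 1 class, so the rule is easier to meet for such genes. Of identifiers with 1 peak 66.1% had it in the 3' UTR. The share whose peaks all lay in the 3' UTR was 52.4% of 353 identifiers with 2 peaks, 38.5% of 291 with 3 to 4, 28.4% of 148 with 5 to 7 and 17.3% of 75 with 8 or more. Among all 867 identifiers with 2 or more peaks the share was 40.6%, or 352 genes.

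**Figure D1:**
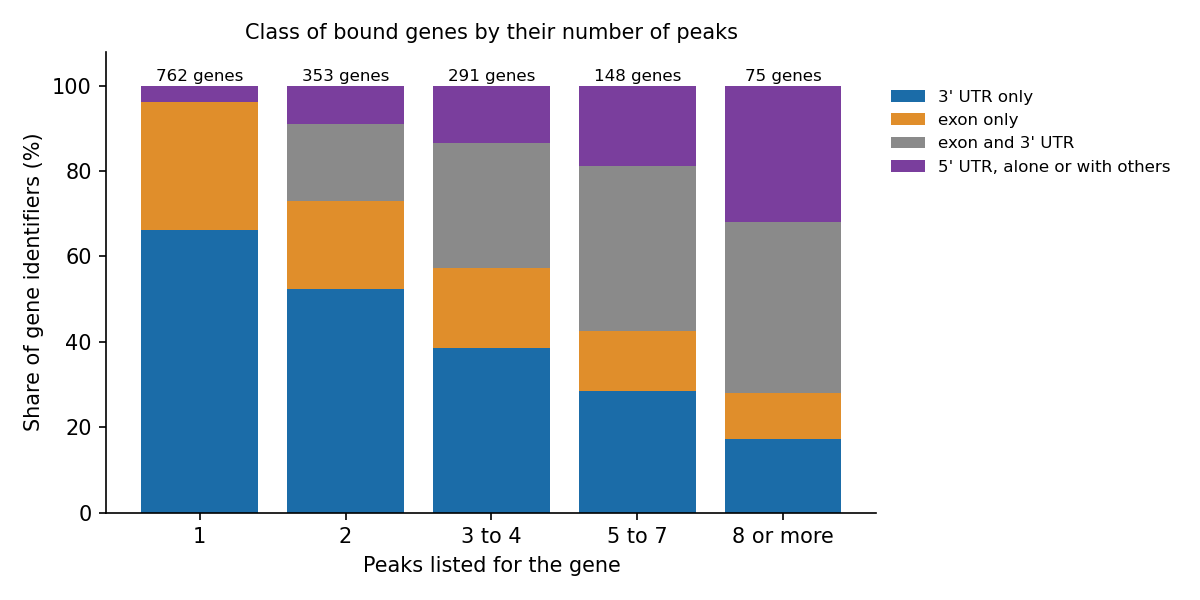
Share of gene identifiers (%) in each class against the number of peaks listed for the gene; the number of identifiers stands above each bar. Blue, genes with peaks in the 3' UTR alone, is 66.1% of genes with 1 peak and 17.3% of genes with 8 or more.

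Peaks on these mRNAs were about as enriched as the rest of the list, and wider. The median log2 fold was 4.58 (23.9-fold; interquartile range 4.24 to 5.25), beside 4.55 for genes with exon peaks alone, 4.67 for genes with both exon and 3' UTR peaks, 4.54 for genes with a 5' UTR peak and 4.60 for the whole list. The median -log10 p was 5.29, beside 5.68 for the whole list. The median width was 93 nt (interquartile range 62 to 132 nt), beside 79 nt for genes with exon peaks alone and for the whole list. Set against the 758 other 3' UTR peaks, those on 293 genes that also had exon or 5' UTR peaks, the members' peaks were wider (93 against 74 nt at the median) and lower in fold (4.58 against 4.79). By definition each of those 293 genes had 2 or more peaks. For members with 2 or more peaks the medians were closer to theirs, at 80 nt and 4.75. With no value per library, none of these differences could be set against the spread between replicates.

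Number of peaks and width went together, so genes were also set side by side at equal number. The single 3' UTR peaks had a median width of 124 nt and a median log2 fold of 4.32, the 228 single exon peaks 117 nt and 4.36, and the 29 single 5' UTR peaks 128 nt and 4.26. With 2 peaks per gene the medians were 98.5 nt and 4.53 in the 3' UTR, against 83 nt and 4.50 in exons. With 5 or more, the comparison turned on the mitochondrial genome, whose 6 listed genes all had exon peaks alone and 61 peaks in all. The medians were 63 nt and 5.29 in the 3' UTR, against 53 nt and 4.80 in exons without those genes and 48 nt and 5.17 with them. A log2 fold of 6 was reached by 134 of 400 peaks (33.5%) in the 3' UTR, by 26 of 159 (16.4%) in exons without the mitochondrial genes and by 81 of 220 (36.8%) with them. The 3' UTR share was therefore the higher one only when those genes, a choice made after seeing the data, were left out.

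Fold also went with the number of peaks inside the 3' UTR group. For the strongest peak of each gene, the median log2 fold was 4.32 with 1 peak, 4.75 with 2, 5.34 with 3 to 4, 6.02 with 5 to 7 and 7.41 with 8 or more. A strongest peak of 7 or more, which is 128-fold, was found on 1 of the 504 single-peak genes and on 7 of the 13 genes with 8 or more. The exception with 1 peak was Rhoa, the GTPase that drives actin contraction, at 7.20 on a peak of 267 nt. A maximum can lie higher by number of peaks alone, so the median over every peak is given too: it was 4.32, 4.53, 4.75, 4.93 and 6.09 in the same order.

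**Figure D2:**
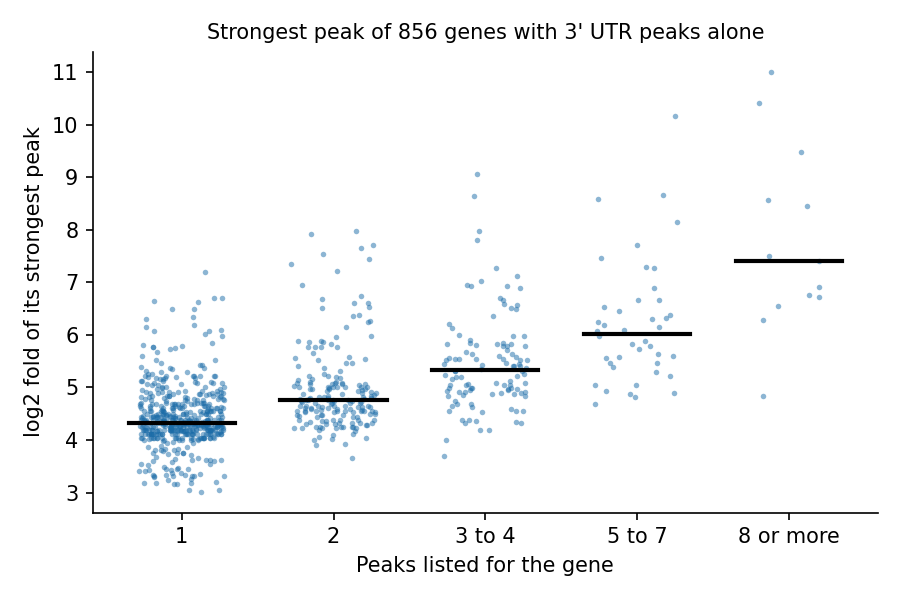
Each point is 1 of 856 genes; the y axis is the log2 fold of its strongest peak, the x axis its number of peaks, and black lines are medians (4.32, 4.75, 5.34, 6.02 and 7.41). Of the 504 single-peak genes all but Rhoa, at 7.20, lie below 7.

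Many listed peaks were pieces of a longer bound stretch, in this group as in the other classes. Of the 1646 peaks 279 touched the next one (17.0%, exact interval 15.2 to 18.9). The share was 17.4% for genes with exon peaks alone. It was 18.6% for genes with both exon and 3' UTR peaks and 20.2% for genes with a 5' UTR peak. Joining touching peaks of the 3' UTR group left 1369 regions with a median width of 114 nt. Of these regions 194 were made of several pieces, up to 13. On genes with exon peaks alone joined regions had a median strongest log2 fold of 5.44, against 4.43 for regions made of 1 peak. In the 3' UTR group these values were 5.46, and 4.44 for the 1175 regions made of 1 peak. Among joined and single regions the widest had the highest folds: the median was 4.44 for regions up to 50 nt, 4.38 for the 439 over 50 and up to 100 nt, 4.75 for the 221 over 150 and up to 200 nt and 6.93 for the 20 over 300 nt. Of those 20, 9 reached a log2 fold of 7 or more. A joined region takes the fold of its strongest piece. Over the 1646 single peaks, fold and width were unrelated (Spearman's rho of -0.017, a description over peaks of shared libraries).

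Most of the 12 most enriched mRNAs had a compact form. Each had 2 or more peaks, and on 10 of the 12 the distance from the first to the last base of the peaks was at most 600 nt; the exceptions were Ptpre (1823 nt) and Lbr (1109 nt). For 30 genes with a strongest fold of 7 or more and 2 or more peaks, the median span was 479 nt and peaks covered a median of 89.5% of it. For 164 genes with a strongest fold under 5 and 2 or more peaks, the span was similar, 553 nt at the median. It was at most 600 nt on 85 of the 164, but peaks covered a median of 37.8% of the span.

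Bin2, whose BAR-domain product shapes membranes in leukocytes, had its peaks on chromosome 15, minus strand, from 100538999 to 100539428. Read from 5' to 3', the log2 folds of its 11 peaks were 8.10, 10.03, 10.22, 10.68, 11.00, 10.52, 10.41, 9.0, 9.41, 8.98 and 9.65. Its summit lay inside the stretch, and its lowest fold belonged to the outermost 5' peak. Mdm2, the ubiquitin ligase that restrains p53, had 11 peaks on chromosome 10, minus strand, from 117525185 to 117525659, with log2 folds of 7.50, 8.28, 8.97, 10.41, 9.52, 9.04, 9.21, 9.11, 8.98, 8.60 and 8.81. The values climbed over the first 4 peaks and then lay between 8.60 and 9.52. Cat, which encodes the peroxide-degrading enzyme catalase, had 6 touching peaks on chromosome 2, minus strand, from 103284440 to 103284807, with log2 folds of 9.13, 10.14, 10.17, 9.72, 9.85 and 9.39. They formed 1 region with a range of 1.04.

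Most of the next genes had their peaks close together at lower folds. Ptpre, a protein tyrosine phosphatase, had 13 touching peaks within 411 nt, with log2 folds of 6.75 to 9.49, and 3 further peaks of 4.93, 5.12 and 4.19, the first of which began 1537 nt from the start of the stretch. The 16 peaks lay on chromosome 7, plus strand, from 135285962 to 135287784. Uprt, named for uracil salvage, had 3 peaks of 7.06, 9.06 and 8.54 on the X chromosome, from 103550278 to 103550663. Fyco1, an adaptor that moves autophagosomes along microtubules, had 4 touching peaks over 483 nt, of which the most 5' was the strongest (8.65) and, at 328 nt, the widest peak on any of these 856 genes. Vps37a, a subunit of the ESCRT-I sorting complex, had 6 peaks over 487 nt with log2 folds of 6.90, 7.09, 7.80, 8.60, 7.57 and 7.89. Gatc, a subunit of the mitochondrial enzyme that makes glutaminyl-tRNA, had 9 over 510 nt, from 6.20 to 8.46, with the summit on the fifth peak. Dvl3, a Dishevelled protein of Wnt signalling, had 7 over 489 nt, from 6.51 to 8.15.

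Lbr, the lamin B receptor of the inner nuclear membrane, differed in form: its most 5' peak of 215 nt stood at 8.67, and the 5 peaks downstream at 5.12, 5.91, 5.50, 6.24 and 6.36. Pstpip2, a cytoskeletal adaptor of myeloid cells, had 2 touching peaks of 7.98 and 7.78 over 371 nt. Acot2, a mitochondrial acyl-CoA thioesterase, had a weak peak of 3.15 followed by one of 7.55, a range of 4.40 between neighbours whose starts lay 251 nt apart. Over all 352 genes with 2 or more peaks the range between strongest and weakest peak had a median of 0.80 on the log2 scale, and 43 genes had a range of 2 or more. Among the 167 genes with 3 or more peaks, the strongest was the most 5' in 41, the most 3' in 45 and inside in 81. Inner positions grow with the number of peaks, so an inside place can be common by number alone. A preferred position was not tested.

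**Figure D3:**
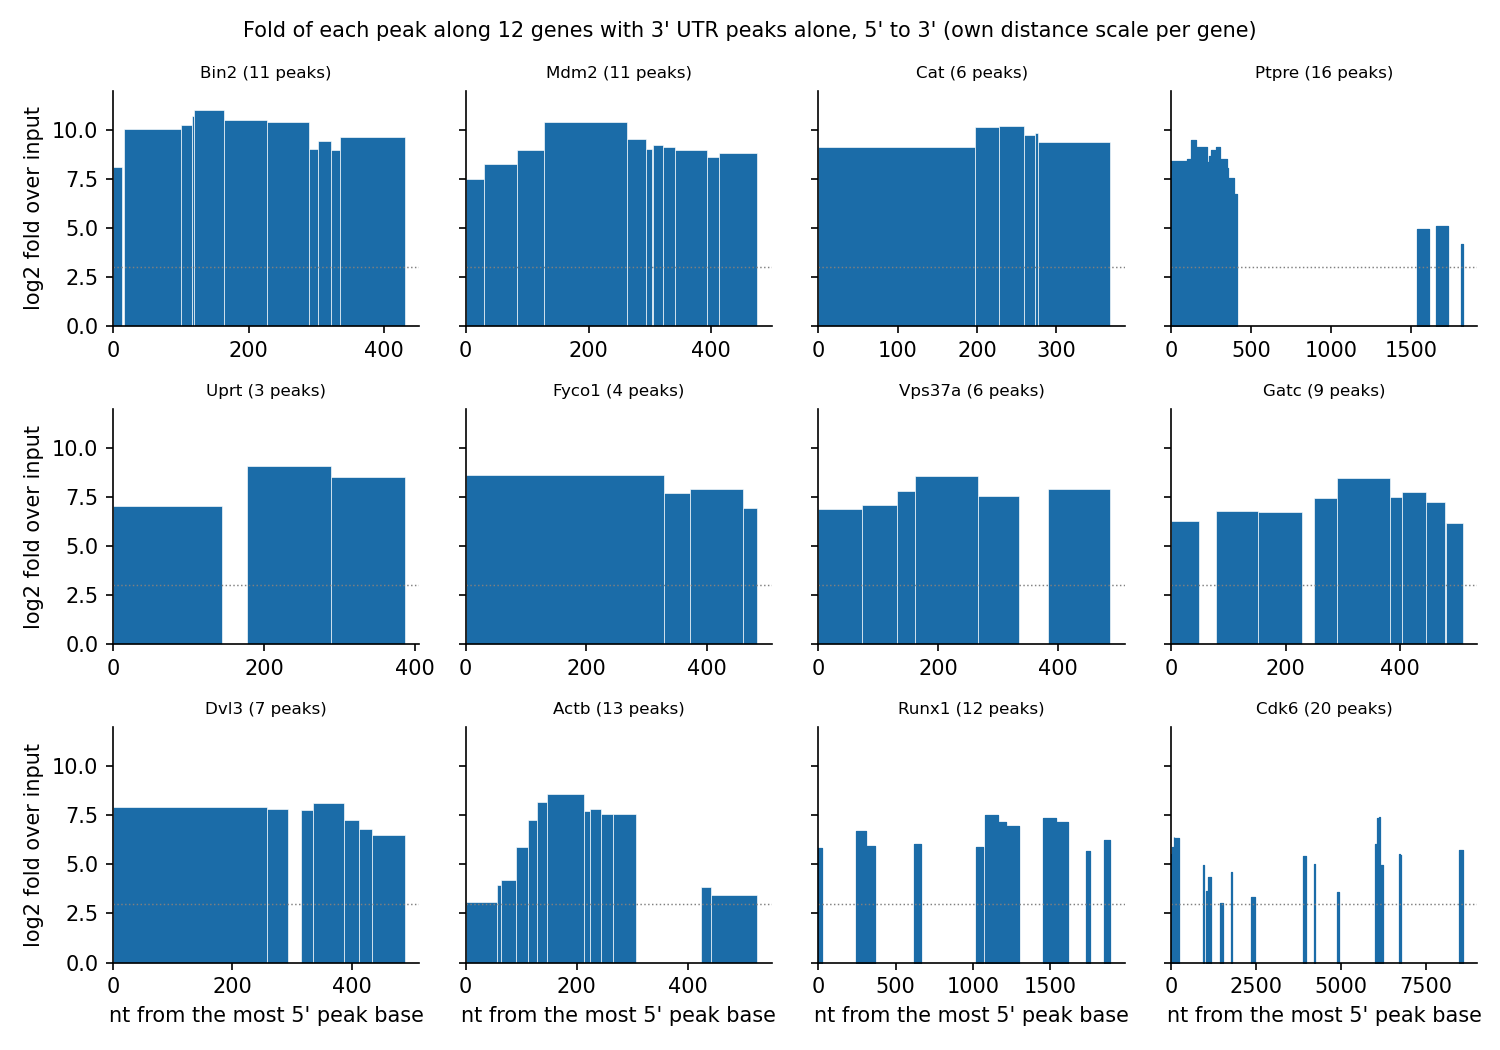
Each panel is 1 gene; bars are single peaks, drawn to their width along the x axis (nt from the most 5' base of any peak, own scale per gene, introns not removed) and to their log2 fold over input on the y axis, and the dotted line marks 3. Bin2, Mdm2, Cat, Uprt, Fyco1, Vps37a, Gatc, Dvl3 and Actb have all peaks within 525 nt, while the 12 Runx1 peaks lie over 1890 nt and the 20 Cdk6 peaks over 8585 nt.

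Actb, for the cytoskeletal beta-actin, had the largest range of fold, 5.48, within 525 nt on chromosome 5, minus strand, from 142888899 to 142889423. From 5' to 3' its 13 peaks had log2 folds of 3.10, 3.96, 4.22, 5.87, 7.25, 8.15, 8.57, 7.74, 7.80, 7.55, 7.55, 3.86 and 3.45. The first 5 of these stood at the -log10 p ceiling of 400 whatever their fold. The summit of 8.57 had a -log10 p of 319. Across the members' 1646 peaks fold and p were closely tied (Spearman's rho of 0.779 and Pearson's r of 0.852 with the log10 of -log10 p, over peaks that share libraries and input reads), and Actb lay off this line. So did Ywhaz, a 14-3-3 adaptor, with log2 folds of 4.03 and 3.41 at -log10 p of 65.0 and 75.1, and Lars2, the mitochondrial leucyl-tRNA synthetase, with a single peak of 5.77 at 81.9. Ywhaz and Lars2 were chosen after their values were seen. The other 6 peaks at the ceiling belonged to Bin2 (4) and Cat (2), so 11 of the 34 such peaks of the whole list were on these mRNAs.

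**Figure D4:**
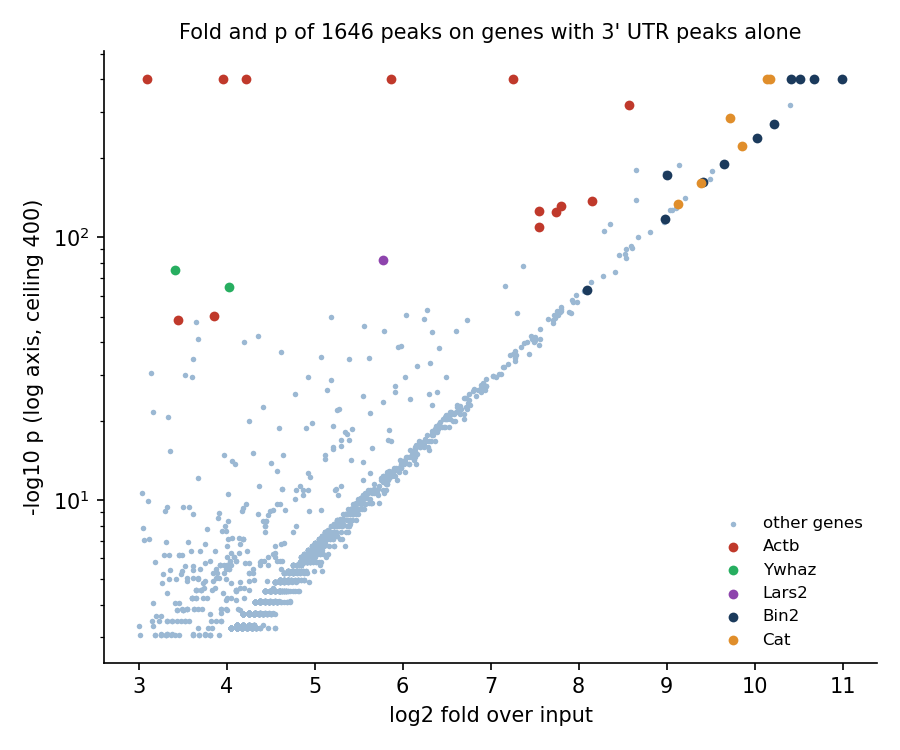
Each point is 1 of 1646 peaks; x is the log2 fold over input and y the authors' -log10 p on a log axis with a ceiling of 400. Most points lie along a lower edge on which p grows with fold, up to Cat and Bin2; Actb, Ywhaz and Lars2 lie above it.

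Other mRNAs had peaks at many separate places. Their distances are genomic, so introns are included, and the lengths of their 3' UTRs were not used. Cdk6, a kinase that drives entry into the cell cycle, had the most peaks, 20 in 16 regions on chromosome 5, plus strand. They fell into a 5' group of 4 touching or nearly touching peaks (5.55, 5.86, 6.41 and 6.34), scattered weaker peaks down to 3.06, and a second group, beginning 6003 nt downstream, of 6.03, 7.38, 7.41 and 4.97. The last peak, at 5.75, lay 8472 nt from the first. Cd47, the surface protein by which cells avoid being engulfed, had 14 peaks in 9 regions over 2190 nt on chromosome 16, with log2 folds from 3.68 to 6.76 and 6 peaks of 6 or more, at both ends and in the middle. Cyb5r1, a cytochrome b5 reductase, had 13 peaks over 3731 nt of chromosome 1. Its first 10 peaks lay between 3.27 and 4.80, and its last 3 reached 5.91, 6.72 and 6.08. Leng8 had 12 peaks over 1170 nt of chromosome 7, from 4.18 to 6.92. Its 6 touching peaks in the middle stood at 6.10, 5.55, 6.04, 6.42, 6.16 and 6.92.

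Runx1, a transcription factor required for blood stem cells to form, had 12 peaks in 8 regions over 1890 nt. From 5' to 3' the log2 folds were 5.84, 6.72, 5.92, 6.02, 5.88, 7.50, 7.15, 6.95, 7.37, 7.17, 5.67 and 6.26. None of its peaks was below 5.67, and its range of 1.83 was smaller than that of Cdk6 (4.35), Cd47 (3.08) or Cyb5r1 (3.45). Nucks1, a nuclear protein phosphorylated by cell cycle kinases, had 11 peaks in 10 regions over 3849 nt, from 3.12 to 6.29. Mlec, the endoplasmic reticulum lectin malectin, had 7 peaks whose summed width was 840 nt. The first 3 touched one another over 475 nt and stood at 6.60, 6.83 and 7.28, and the last, 2487 nt downstream of the first, at 4.18. St3gal1, a sialyltransferase, had 4 wide peaks of 4.43, 4.57, 4.48 and 5.44, with a summed width of 708 nt.

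In a few genes peaks of the class 3' UTR lay very far apart on the genome. The median span of genes with 2 or more peaks was 544 nt (interquartile range 261 to 1628 nt), but 27 spanned more than 5 kb and 9 more than 10 kb. Distances are genomic, so introns are included, and the authors' class of these peaks was not checked against transcripts. The longest was Ptbp3, a splicing regulator of the polypyrimidine tract-binding family, with 38839 nt between the ends of 4 peaks (4.79, 4.19, 4.50 and 5.63 from 5' to 3'). In Slc25a12, the mitochondrial aspartate-glutamate carrier, 2 upstream peaks of 4.31 and 5.01 were followed, 37618 nt from the first, by 4 of 5.73, 5.18, 6.89 and 6.86. St8sia4, a polysialic acid synthase, showed the opposite order, with 5 peaks of 4.50 to 6.07 in its upstream part and 1 of 4.44 some 37907 nt away. Sbno1 (33980 nt), the AP-3 adaptor subunit gene Ap3s1 (32386 nt) and the GABA-B receptor gene Gabbr1 (25055 nt) completed the 6 longest.

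At the lower end, 598 of the 856 genes had no peak of log2 fold 5 or more, and 434 of these had a single peak. The weakest were Stx4a, a SNARE of the plasma membrane (3.02), the ceramide synthase gene Cers6 (3.04), the p38 kinase gene Mapk14 (3.05), the acyltransferase gene Agpat1 (3.16), the inositol phosphate kinase gene Ip6k1 (3.17) and Pyroxd2 (3.19), which tied in fold with Dcaf8 and Slc35e2 and was taken for its higher -log10 p. Each of the 6 had 1 peak, 93 to 250 nt wide. The -log10 p of these 6 ran from 3.07 for Stx4a to 10.7 for Cers6, so the lowest folds were not the lowest p in every case.

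Which kinds of mRNA held their peaks in the 3' UTR alone was described with 31 gene lists. Among protein-coding genes named by RefSeq 7.33% had any peak and 3.88% had 3' UTR peaks alone; of those with a peak, 52.9% had them in the 3' UTR alone. Of the 22 lists with 10 or more bound genes, 10 had a higher share than 52.9% and 12 a lower one. With any 3' UTR peak counted, 15 of the 22 lay above the 71.0% of all bound genes. The lists were not tested, and the lengths of the 3' UTRs, which set how many peaks can fall there, were not used here. Intervals below are exact Clopper-Pearson intervals of 95%.

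Nuclear regulators stood at the upper end. Of 28 bound zinc finger genes named Zfp, most of which encode DNA-binding proteins, 23 had 3' UTR peaks alone (82.1%, interval 63.1 to 93.9). Zfp46 reached 6.37 on 2 touching peaks, Zfp36l1, whose product is an mRNA-destabilising protein and binds AU-rich elements, 6.27, Zfp800 6.16 and Zfp871 5.73. Only 6 of the 23 had a single peak, and their median strongest log2 fold of 4.84 compares with 4.59 for all 856 genes. Of 24 bound chromatin modifiers and remodellers 18 were in this group (75%, interval 53.3 to 90.2). Kmt5a, which monomethylates histone H4, reached 7.44, the SWI/SNF ATPase gene Smarca2 5.86, Suz12 of the Polycomb repressive complex 5.52 and Kmt2e 5.07. The group also held Tet2, Kmt2a, Kmt2c, Kmt2d and Dnmt1, and 12 of the 18 had a single peak.

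Regulators of mRNA fate had 17 of 26 bound genes in this group (65.4%, interval 44.3 to 82.8). After Zfp36l1 there were Ybx3, a cold-shock RNA-binding protein (6.14), the deadenylase scaffold gene Cnot1 (6.07) and Tob1, which recruits deadenylases (5.22). Readers and erasers of N6-methyladenosine were among them: Alkbh5, Ythdf2 and Ythdf3, as well as Wtap of the writer complex. The strongest peak of each reached 5.07, 4.41, 4.12 and 3.20 in that order. By contrast, of 32 bound spliceosome and SR protein genes 10 had 3' UTR peaks alone (31.2%, interval 16.1 to 50.0), and of 23 bound hnRNP genes 9 (39.1%, interval 19.7 to 61.5). These 10 and 9 included Srsf1 (5 peaks, up to 5.61), Srsf6 (5.36), Celf1 (5.32), Tra2b (5.0), Pcbp2 (6.25), Hnrnpl (6.09), Ptbp3 and Hnrnpa0 (5.42). Most other genes of both lists also had a 3' UTR peak. Counting any, the shares were 75% and 87.0%, beside 71.0% of all bound genes. On that measure the regulators of mRNA fate stood at 88.5%, close to the hnRNP genes.

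Signalling and turnover genes lay near or above the share of all bound genes. Of 50 bound membrane traffic genes 32 had 3' UTR peaks alone (64%, interval 49.2 to 77.1). After Vps37a stood Vps33b, a vesicle tethering protein, with 7.97 on chromosome 7, then the sorting nexin gene Snx12 (6.66) and the Rab11 effector gene Rab11fip1 (5.77). The GTPases Rab1a, Rab2b, Rab6a, Rab10, Rab12, Rab14 and Rab21 were all in this group. Of 36 bound ubiquitin ligase and deubiquitinase genes 22 were (61.1%), and after Mdm2 the strongest were Birc6 (5.58), Trim44 (5.26) and Cul5 (5.08). Of 11 bound mitogen-activated and casein kinase genes 8 were (72.7%, interval 39.0 to 94.0), led by Mapk6 (5.25), Csnk1a1 (5.18) and Map3k7 (5.11). Serine-threonine phosphatase subunits had 7 of 15 (46.7%), with Ppp6c at 6.50, Ppp1r16b at 4.88, Ppp4c at 4.73 and Ppp1r12a at 4.65, and solute carriers 15 of 30 (50%), with Slc25a12, Slc6a6 (6.38), Slc26a2 (5.83) and Slc16a6 (5.73).

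The interleukin-3 pathway had 8 of 14 bound genes in this group (57.1%, interval 28.9 to 82.3). They included the survival gene Mcl1 (5.38, with 7 peaks over 1304 nt), the small GTPase gene Nras (5.16), Csf2rb (5.0), Cbl and Lyn. Haematopoietic stem cell regulators had 9 of 16 (56.2%, interval 29.9 to 80.2). After Runx1 and Cd47 stood the ETS factor gene Erg, with a single peak of 6.70 on chromosome 16, from 95160092 to 95160278, and Msi2, an RNA-binding regulator of stem cell renewal, with 6 peaks up to 5.56. Foxo3, Cbfb, Tet2, Kmt2a and Cdkn1b followed, down to 4.11. Cbfb encodes the partner subunit of Runx1. Cell cycle genes had 7 of 11 (63.6%), and after Cdk6 came Ccnd2, its cyclin partner, with 6 peaks up to 5.05, then Cdc27 (4.72) and Cdkn2c, an inhibitor of Cdk4 and Cdk6 (4.32). Of p53 and apoptosis genes 5 of 13 (38.5%) were in this group: Mdm2, Birc6, Mcl1, Ccng1 (4.80) and Gadd45a. Myeloid and mast cell genes had 2 of 10 (20%), Lcp2, an adaptor of immune receptor signalling (6.93), and Csf2rb. Most other bound genes of these last lists also had a 3' UTR peak. Counting any, the shares were 84.6% for p53 and apoptosis and 80% for myeloid and mast cell genes, beside 71.0% of all bound genes.

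Actin cytoskeleton genes had 16 of 27 (59.3%, interval 38.8 to 77.6), and 11 of the 16 had a single peak. After Actb and Rhoa the strongest were Actr2, of the branched-actin Arp2/3 complex, with 6 peaks up to 5.22, and the myosin light chain gene Myl12b (5.22). The small GTPases Rac1, Rac2 and Cdc42 were in this group as well.

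Cytosolic ribosomal protein, oxidative phosphorylation and histone genes stood at the lower end, with the myeloid and mast cell genes above. Of 70 bound cytosolic ribosomal protein genes 5 had 3' UTR peaks alone (7.14%, interval 2.36 to 15.9): Rpl27a (4.80), Rpl22l1 (4.19), Rpl6 (4.10), Rpl41 (4.00) and Rpl36a (3.31). All 5 lay below a log2 fold of 5. Oxidative phosphorylation had 2 of 12 (16.7%, interval 2.09 to 48.4), Atp5pb (4.11) and Sdha (3.76). Histone genes had 7 of 28 (25%, interval 10.7 to 44.9), led by H4c6 (5.99), H1f0, for a linker histone made outside DNA replication (5.46), H2ac4 (4.60) and H1f3 (4.38). Apart from the linker histone genes H1f0 and H1f3, these genes belong to families of nearly identical copies. Which copy a peak comes from can be uncertain and was not checked. Chaperones had 7 of 21 (33.3%), with Pdia4 (6.53), Ppia (5.80), Cct6a (4.60) and Cct7 (4.26). Translation factors had 8 of 21 (38.1%), with the helicase genes Eif4a2 (5.82) and Eif4a1 (4.69), Eif5 (4.57) and Eif4b (4.43). The proteasome had 4 of 10 (40%): Psmd5 (7.35, 2 touching peaks), Psme3 (4.79), Psmd2 (4.44) and Psma6 (4.00). The intervals were 14.6 to 57.0 for chaperones, 18.1 to 61.6 for translation factors and 12.2 to 73.8 for the proteasome. All of these include the 52.9% of all bound genes.

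**Figure D5:**
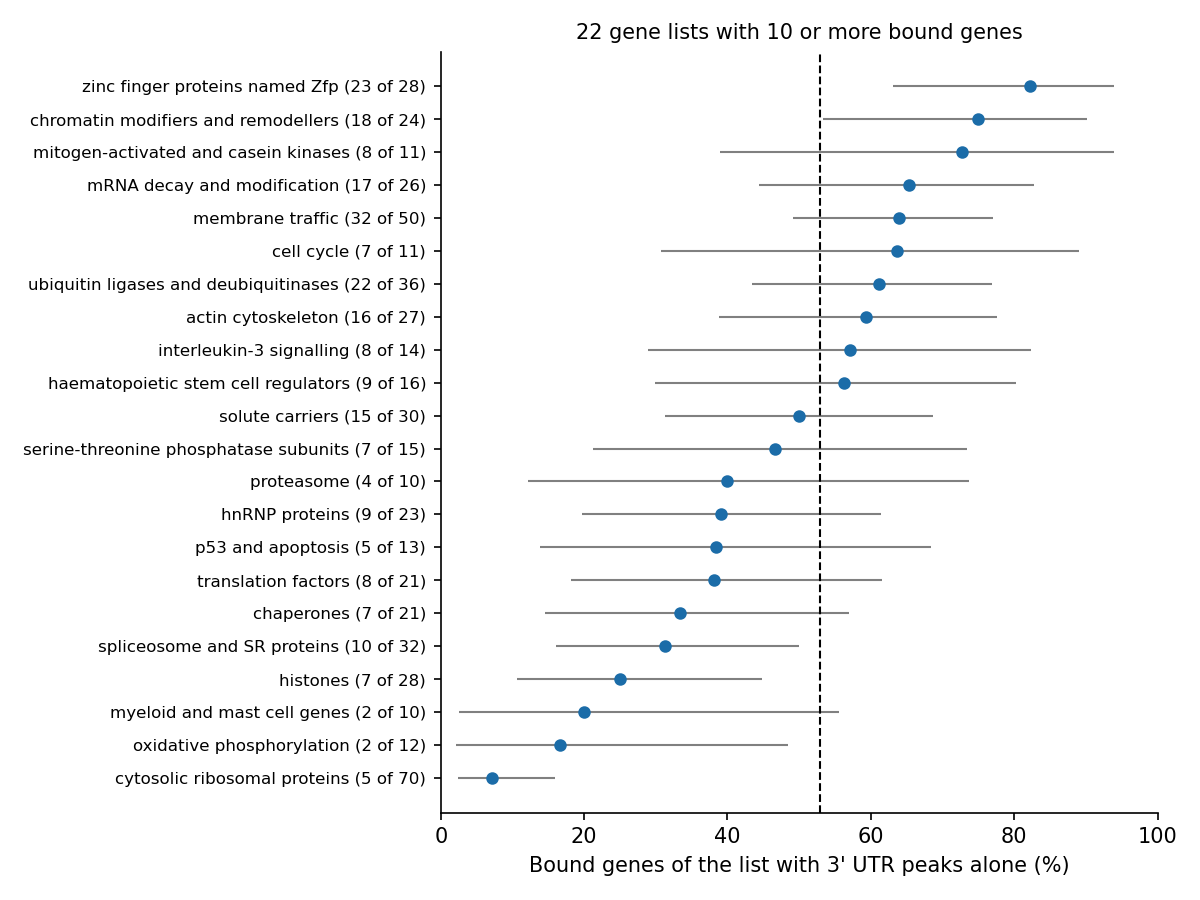
For each of 22 lists with 10 or more bound genes, the point is the share (%) of bound genes with 3' UTR peaks alone, the line its exact 95% interval and the dashed line the 52.9% of all bound protein-coding genes; counts stand beside the names. Zfp genes lie highest at 82.1% and cytosolic ribosomal proteins lowest at 7.14%.

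Lists with fewer than 10 bound genes gave counts only. Ribosome biogenesis had 4 of 8, Dkc1 (4.65), Nop56 (4.50), Nop58 (4.48) and Ddx21 (4.44), glycolysis 2 of 7, Hk2 (4.50) and Eno1 (4.32), and the Tmem genes 3 of 7, Tmem68 (5.77), Tmem241 (5.29) and Tmem263 (4.47). No mitochondrial ribosomal protein gene was in this group, with 2 of 78 bound in any class. Among the control lists of other cell types, 1 of 1106 olfactory receptor genes was bound, beside 7.33% of all protein-coding genes. This was Olfr920, with 3' UTR peaks alone (4.64, 2 touching peaks over 22 nt). The neuronal list had 1 bound gene of 30, with 3' UTR peaks alone. The lymphoid list of 23 genes and the hepatocyte list of 29 had no bound gene. The erythroid and megakaryocyte list of 21 had 1, in exons.

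The genomic span in the RefSeq table had a median of 30.7 kb for the 851 matched genes (order-statistic interval 28.3 to 32.7 kb), 28.0 kb for genes with exon peaks alone, 31.9 kb for genes with both exon and 3' UTR peaks and 16.3 kb for genes with a 5' UTR peak. All protein-coding genes had a median of 17.1 kb.

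Some genes missed the rule by a single peak. While 55 genes with 5 or more peaks had all of them in the 3' UTR, 14 others had 5 or more 3' UTR peaks and exactly 1 peak elsewhere. These were Fnbp1 (13 in the 3' UTR), Slc25a36 (12), Ddx17 and Slc7a1 (11 each), Cbx5 (10), Muc13 (8), Fam107b and Runx3 (7 each), Atp2a3, Rbm39 and Slc2a3 (6 each), and Cited2, Pdlim5 and Ppp3ca (5 each). In 12 of the 14 the odd peak lay in an exon. In 13 it was weaker than the strongest 3' UTR peak of the gene, as in Muc13 (4.35 against 8.55). In Fam107b it was stronger, with 7.75 in the 5' UTR against 4.84. The strongest of 5 or more peaks can lie above 1 other peak by number alone, so these counts do not compare the classes.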

How the data were processed

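The authors deposited 1 peak list for the 4 libraries, with a position, strand, gene identifier, symbol and class per peak. The column headed as a p-value was read as the authors' -log10 p, since its values lie above 3, and the column headed as a fold as their log2 fold of immunoprecipitate over input; both readings come from the values. The build is GRCm39 per the submitters' processing notes. No source used here names the peak caller, its cut-offs or how replicates were joined, and library depth is unknown.

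The class text was trimmed and lower-cased, each peak name counted once (6 peaks of these genes were listed under 2 identifiers), and touching peaks of a gene on 1 strand joined where stated. Symbols were matched to the RefSeq table of GRCm38.p6 by symbol, then by a synonym of 1 gene (851 of 856), for names, types and lengths only. Positions count from 1. The class of a peak was taken from the authors. Python 3.11.15, pandas 2.3.3 and scipy 1.17.1 were used; classification, joining and intervals were checked on simulated lists. Medians have order-statistic intervals of 95%, which treat peaks of 1 gene as independent.

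The members and the gene lists were chosen with earlier results of these data known. Named genes are the 12 strongest, the 8 with most peaks, the 6 each with the largest summed width, span and range of fold and with the lowest strongest peak, those at the p ceiling, up to 4 per list, and genes just outside the rule. Other genes named beside a list were chosen after their values were seen. The planned reading of peak sequences was not run, since no genome of the files' build was used here. Some genes that the rule names are not reported here.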

Additional observations from a re-analysis of the deposited data

How the results depend on the processing

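No paired analysis was possible because the list holds no value per library, so neither the replicate block nor leaving out a replicate could be run. Of 37 alternatives for 9 results, 18 stayed within the main interval or within 1.5 times the main count, 19 moved and 0 reversed. The count of genes moved from 856 to 491 with peaks above the list's median fold (415 of these were members before, 76 came from other classes), to 441 with peaks above its median -log10 p and to 352 with 2 or more peaks. The median log2 fold was 4.53 with touching peaks joined, 4.45 with the median peak per gene and 4.75 for genes with 2 or more peaks. The median -log10 p was 4.59 and 5.87 under the last pair of settings. The median width was 114 nt joined, 124 nt joined within 50 nt, 119 nt for the strongest peak per gene, 107.5 nt for the median peak per gene and 80 nt for genes with 2 or more peaks. The share of genes with 1 peak was 66.7% after joining and 72.7% within 50 nt. The share of touching peaks was 24.4% among the stronger peaks and 19.9% with gaps up to 10 nt. The range of fold was 1.60 for genes with 4 or more peaks. Lists above the share of all bound genes numbered 5 of 15 with 2 or more peaks per gene. For these moves the cause was not tested.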

Other observations

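The folds of these mRNAs were highly repetitive: the 1646 peaks took 628 distinct values, and the commonest, 4.19, was shared by 51. Of the 1376 peaks with a log2 fold up to 5.78, 87.0% lay, within 1e-05, on steps of a constant plus 0.5 times log2 of a whole number up to 1000. The square root of that whole number had a median of 13.0 and an interquartile range of 11.0 to 17.0; whether it stands for reads per library was not tested. On these steps lay 79.1% of such folds for genes with exon peaks alone and 83.1% for genes with both exon and 3' UTR peaks. The share was 70.2% for genes with a 5' UTR peak and 81.8% for the whole list.

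The members were spread over all autosomes and the X chromosome, with none on the mitochondrial genome. Of these chromosomes, their share of the listed genes was lowest on chromosome 13, 30 of 77 (39.0%), and highest on chromosome 16, 39 of 55 (70.9%). Over all identifiers it was 52.5%, and differences between chromosomes were not tested. An unplaced scaffold held 5 peaks, with a strongest log2 fold of 4.81, of 1 identifier without a gene symbol. Of the 856 identifiers 850 matched a protein-coding gene. Kantr, a long non-coding RNA, had 1 peak, of the authors' class 3' UTR, and 5 identifiers had no match.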
